A study of Vitis vinifera with 24 samples.

Results

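Abscisic acid (ABA) is a plant hormone derived from carotenoids, and 5 grapevine genes of its synthesis and breakdown are described here out of 26740 genes listed in the RPKM tables of either year. They were taken by gene identifier. The synthesis genes were NCED1 (VIT_19s0093g00550), NCED2 (VIT_10s0003g03750) and NCED3 (VIT_05s0051g00670), and the breakdown genes were the ABA 8'-hydroxylases VIT_18s0001g10500 and VIT_02s0087g00710. The NCED numbers are working names, which may differ from those given elsewhere to the same identifiers. Transcripts were measured by mRNA sequencing in whole Sauvignon blanc berries, that is skin, pulp and seeds together, from irrigated vines near Bordeaux. Control vines received no nitrogen in the trial, and soil N100 vines received 100 U/ha of nitrogen in soil applications at bud break and at flowering. Berries were picked 28 days after mid-veraison, the stage (v + 28), and again at 35 days, the stage (v + 35). This was done in 2013 and repeated in 2014, which gave 8 groups of 3 libraries, or 24 in total. Vines of another clone on another rootstock were used in the second year, so a season and its plant material cannot be told apart. The replicates were berry samples from separate blocks of vines at a single site.

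The 9-cis-epoxycarotenoid dioxygenases encoded by NCED genes cleave a carotenoid in the plastid and commit it to ABA. This step is widely regarded as limiting for the rate of synthesis. The ABA 8'-hydroxylases are cytochrome P450 enzymes of the CYP707A family, which start the main route of ABA inactivation towards phaseic acid. Grapes are non-climacteric fruits, and ABA accumulates in the berry around veraison, when softening, sugar accumulation and, in red cultivars, colouring begin. Levels of the hormone itself were not measured in the files, so what follows concerns transcripts.

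Between 29.6 M and 80.0 M reads per library fell in genes. At (v + 28) in 2013 the range was 30.3 to 35.6 M in control and 44.2 to 53.9 M in soil N100 libraries, without overlap. The depths of the treatments overlapped at the other stages and years. Levels are given as RPKM, which scales reads to gene length and library size and allows genes of unequal length to be compared. The 2 years are separate tables, and levels are set side by side across them with no test. All 5 genes were of low to middling abundance. NCED2 had the highest yearly mean, at 3.53 RPKM in 2013 and 2.36 RPKM in 2014, above 52.7% and 48.8% of the listed genes. Mean levels of NCED1 were 2.31 and 1.67 RPKM in 2013 and 2014, and those of NCED3 were 1.17 and 1.13 RPKM. The hydroxylase VIT_02s0087g00710 had means of 1.64 and 1.06 RPKM. The other hydroxylase, VIT_18s0001g10500, was barely detected, at 0.0290 and 0.00623 RPKM. Genes were tested where their mean over the 12 libraries of a year reached 0.5 RPKM, so 4 of the 5 genes were tested in each year and VIT_18s0001g10500 in neither.

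**Figure D1:**
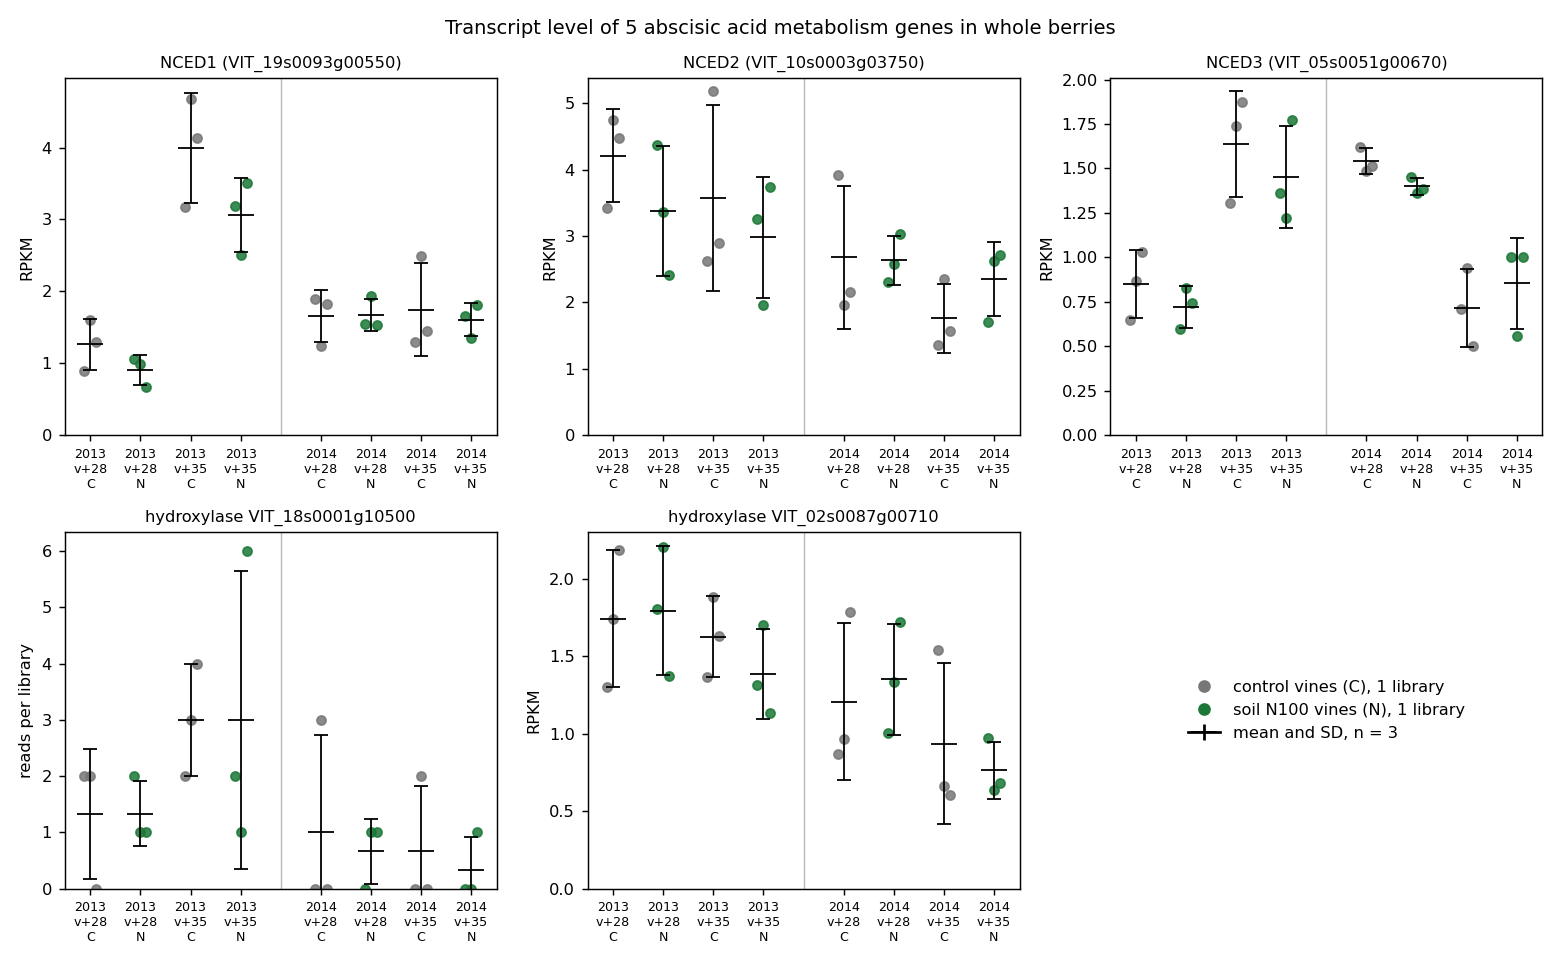
Level of each gene in each library, by year, stage and treatment (C, control; N, soil N100), in RPKM on linear axes from 0, or in reads per library for VIT_18s0001g10500. Points are libraries and black marks are the mean and SD of 3 libraries; NCED1 stood above 2.5 RPKM in all 6 libraries of (v + 35) in 2013, and NCED3 changed in opposite directions in 2013 and 2014.

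NCED1 was the gene with the largest change between the stages in 2013, and it showed no such change in 2014. In control berries of 2013 its level was 0.886, 1.60 and 1.29 RPKM at (v + 28) and 3.18, 4.68 and 4.13 RPKM at (v + 35). Under soil N100 in the same year it was 1.06, 0.987 and 0.669 RPKM at (v + 28) and 3.18, 2.51 and 3.51 RPKM at (v + 35). Every late library was thus above every early one, whichever the treatment, as was the case for 5.16% of the genes tested. The mean rose from 1.26 ± 0.36 RPKM (SD, n = 3) to 3.997 ± 0.76 RPKM (SD, n = 3) in control berries, a ratio of 3.17, and from 0.906 ± 0.21 to 3.07 ± 0.51 RPKM in soil N100 berries, a ratio of 3.38.

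Changes were tested with limma on log2(RPKM + 0.5), a scale on which the change of low genes is understated, and a gene was called where the adjusted p was at most 0.05 and the log2 fold change (LFC) at least 0.6 in size. The LFC of NCED1 between the stages was 1.36 (SE 0.19, adjusted p = 0.000766) in control berries and 1.34 (SE 0.19, adjusted p = 0.000812) in soil N100 berries of 2013. In these contrasts 3.93% and 3.72% of the 17298 genes tested were called higher at (v + 35). With the libraries rescaled by median ratios, those shares were 4.69% and 4.70%, and 60.9% and 59.2% of all calls were increases in place of 46.4% and 44.8%. On the reads recovered from the RPKM values, the LFC of NCED1 was 1.70 and 1.74. Averaged over the treatments, a contrast chosen after seeing the data, NCED1 had an LFC of 1.35 (SE 0.13) and NCED3 one of 0.67 (SE 0.11) in 2013, where 4.14% of genes were called higher. In 2014 the level in control berries was 1.89, 1.24 and 1.83 RPKM at (v + 28) and 1.30, 2.49 and 1.45 RPKM at (v + 35). Under soil N100 it was 1.55, 1.93 and 1.53 RPKM at (v + 28) and 1.66, 1.35 and 1.81 RPKM at (v + 35). The stages overlapped in each treatment, with an LFC of 0.04 (95% interval -0.39 to 0.47) in control berries and -0.04 (-0.47 to 0.38) in soil N100 berries.

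NCED3 rose between the stages in 2013 and was lower at the later stage in 2014. In control berries of 2013 it stood at 0.648, 0.869 and 1.03 RPKM at (v + 28) against 1.30, 1.74 and 1.87 RPKM at (v + 35). Under soil N100 in 2013 it stood at 0.594, 0.825 and 0.743 RPKM at (v + 28) against 1.36, 1.22 and 1.77 RPKM at (v + 35). The groups did not overlap in either treatment, as held for 15.2% of genes in control and 11.9% in soil N100 berries, and the ratios of the means were 1.93 and 2.02. The LFC was 0.66 (SE 0.16, adjusted p = 0.0109) in control berries and 0.67 (SE 0.16, adjusted p = 0.0110) in soil N100 berries. These sizes lie close to the limit of 0.6. Without replicate 1 of (v + 28) or replicate 3 of (v + 35), the LFC was 0.55 or 0.58 in control berries and 0.60 or 0.56 in soil N100 berries, each under the limit, with adjusted p values from 0.0434 to 0.0484. On recovered reads the LFC was 1.00 and 1.01.

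In 2014 the same gene went the other way. NCED3 was at 1.62, 1.49 and 1.51 RPKM in control berries at (v + 28) against 0.707, 0.940 and 0.503 RPKM at (v + 35). Berries of soil N100 vines had 1.45, 1.36 and 1.38 RPKM and then 0.999, 0.558 and 1.00 RPKM. All 6 late libraries were below all 6 early ones, as were those of 6.13% of genes. Within control berries alone such a separation held for 14.4% of genes. The control mean at (v + 28) was 2.15 times that at (v + 35), with an LFC of -0.76 (SE 0.16, adjusted p = 0.0279), in a contrast in which 1.58% of 17171 genes were called lower. In soil N100 berries the LFC was -0.51 (SE 0.16, adjusted p = 0.121), and the gene did not pass the test, with 0.646% of genes called lower. The call in control berries was lost without replicate 1 of (v + 28) (adjusted p = 0.122), without replicate 2 of (v + 28) (0.0582), without replicate 1 of (v + 35) (0.0731) and without replicate 3 of (v + 35) (0.121), while the LFC in these fits ran from -0.78 to -0.63. It was also lost with a replicate block (adjusted p = 0.0592) and with the 6 control libraries alone (adjusted p = 0.148), at the same LFC of -0.76. With a pseudocount of 1 the adjusted p was 0.0247 and the LFC, at -0.57, was under the limit of size. Averaged over the treatments, the LFC was -0.63 (SE 0.11, adjusted p = 0.00477), and 2.28% of genes were called lower. Without replicate 3 of the late control berries or replicate 2 of the late soil N100 berries, this value was -0.57 or -0.55, under the limit of size. A mean over treatments takes all 12 libraries of a year as independent.

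**Figure D2:**
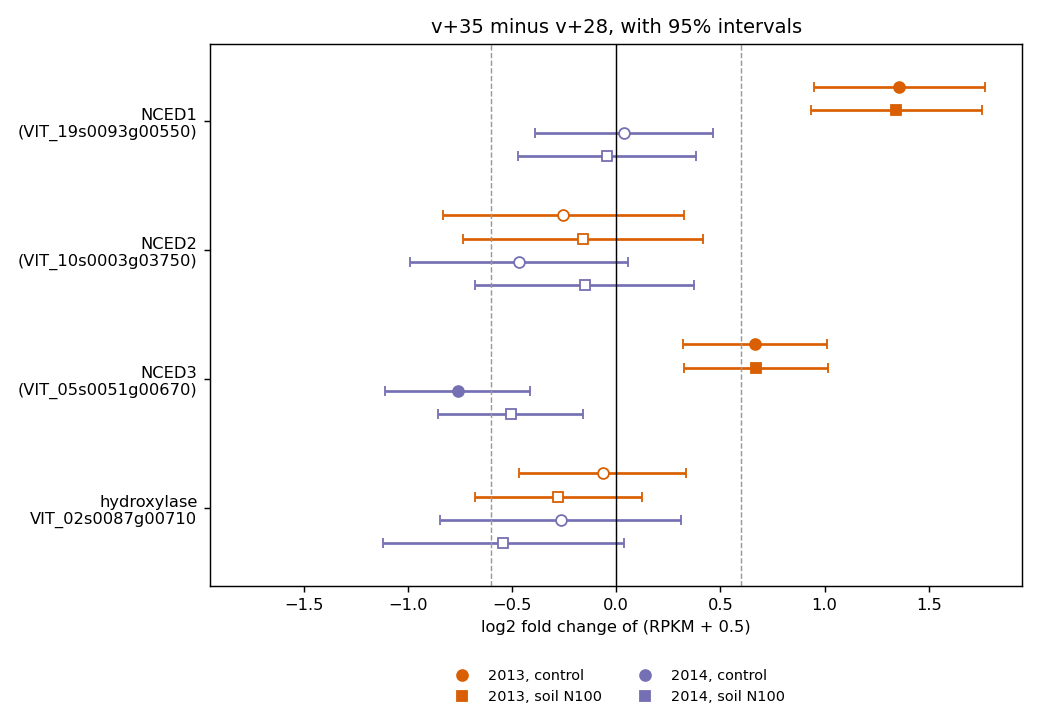
Change from (v + 28) to (v + 35) of the 4 genes tested, as the LFC of RPKM + 0.5 with its 95% interval, by year and treatment. Filled marks passed the test and dashed lines mark an LFC of 0.6 in size; NCED1 and NCED3 passed as increases in both treatments in 2013, and NCED3 as a decrease in control berries in 2014.

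NCED2, the most abundant of the NCED genes over the libraries of each year, did not pass the test between the stages. In 2013 it was at 3.41, 4.75 and 4.47 RPKM in control berries at (v + 28) against 2.63, 5.18 and 2.89 RPKM at (v + 35). Berries of soil N100 vines had 4.37, 3.35 and 2.40 RPKM and then 3.25, 1.97 and 3.73 RPKM. The spread between replicates was as wide as the difference between the groups. The 2014 values were 3.92, 1.96 and 2.16 RPKM and then 1.36, 2.35 and 1.57 RPKM in control berries. In soil N100 berries of 2014 they were 2.30, 2.57 and 3.03 RPKM and then 1.70, 2.62 and 2.72 RPKM. The LFC between the stages lay between -0.47 and -0.15 in the 4 contrasts, with adjusted p values from 0.209 to 0.740. Its 95% interval in 2013 ran from -0.83 to 0.32 in control berries and from -0.74 to 0.42 in soil N100 berries.

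The make-up of the NCED transcripts followed from these levels. In control berries of 2013, NCED2 made up 66.9% ± 1.8 (SD, n = 3) of the summed NCED RPKM at (v + 28) and 38.0% ± 6.1 (SD, n = 3) at (v + 35). The share of NCED1 went from 19.7% ± 2.2 to 43.8% ± 3.1. Soil N100 berries of 2013 had nearly the same shares, with NCED2 at 66.8% ± 5.0 and then 39.2% ± 4.0, and NCED1 at 18.1% ± 0.88 and then 41.3% ± 2.6. In 2014 the share of NCED1 at (v + 28) was 28.4% ± 4.2 in control berries and 29.3% ± 3.6 in soil N100 berries, and at (v + 35) it was 40.9% ± 2.3 and 33.5% ± 4.1. NCED3 made up 27.0% ± 5.0 of the sum in control berries at (v + 28) in 2014 and 17.2% ± 3.5 at (v + 35). The summed NCED level was 6.32 ± 1.2 RPKM in control berries at (v + 28) and 9.20 ± 2.3 RPKM at (v + 35) in 2013, against 5.87 ± 1.4 and 4.22 ± 1.3 RPKM in 2014. Shares and sums are descriptions and were not tested.

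**Figure D3:**
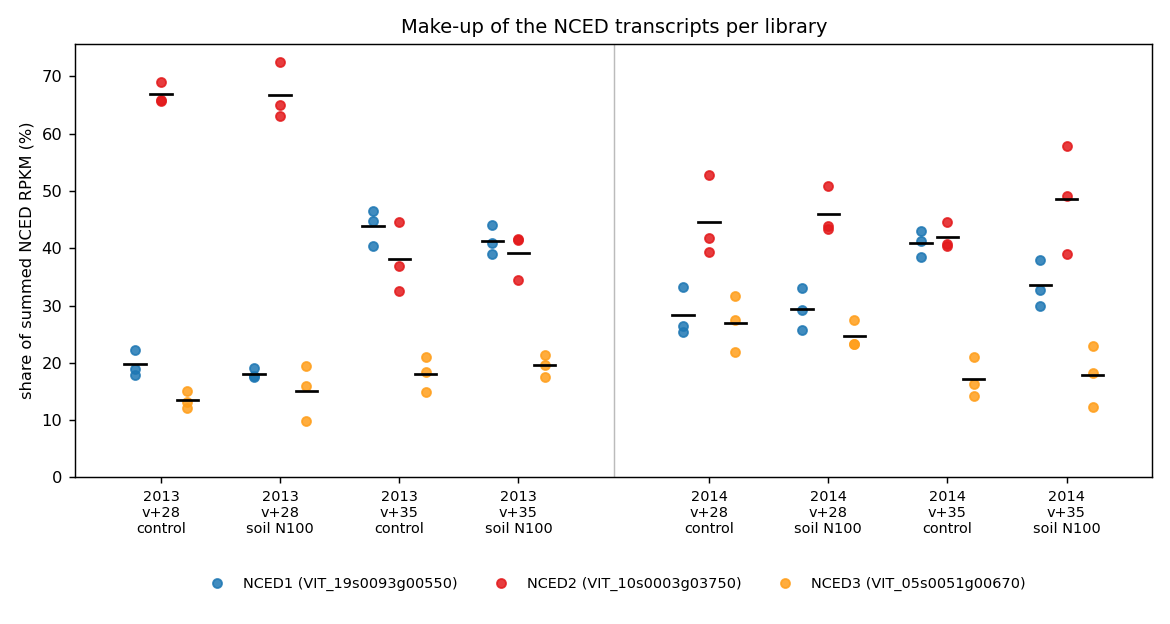
Share of each NCED gene in the summed NCED RPKM of a library, in percent, by year, stage and treatment. Points are libraries and bars are means of 3 libraries; in 2013 the NCED2 share was 63.0 to 72.5% in the 6 libraries of (v + 28) and 32.5 to 44.6% in the 6 libraries of (v + 35).

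Of the breakdown genes, VIT_02s0087g00710 was the hydroxylase with measurable transcript. Its level in control berries of 2013 was 1.30, 1.74 and 2.19 RPKM at (v + 28) and 1.36, 1.88 and 1.63 RPKM at (v + 35). With soil N100 it was 1.81, 2.21 and 1.37 RPKM and then 1.31, 1.70 and 1.13 RPKM. The stages overlapped in both treatments. In control berries of 2014 the level was 0.867, 0.966 and 1.79 RPKM and then 1.54, 0.665 and 0.607 RPKM. In soil N100 berries of 2014 it was 1.00, 1.33 and 1.72 RPKM and then 0.972, 0.634 and 0.685 RPKM, so that here every late library was below every early one, as were those of 17.1% of the genes tested. The LFC was -0.54 (95% interval -1.12 to 0.04, adjusted p = 0.261) in that contrast and between -0.28 and -0.07 in the other 3, none of which passed the test.

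The transcripts of VIT_18s0001g10500 amounted to 26 reads in the 12 libraries of 2013 and 8 reads in the 12 libraries of 2014. No library held more than 6 reads, and 1 library of 2013 and 7 of 2014 held none. At (v + 28) in 2013 the pooled control and the pooled soil N100 libraries held 4 reads each (95% Poisson interval 1.09 to 10.2). At (v + 35) in 2013 they held 9 reads each (4.12 to 17.1). The 2014 groups held 3, 2, 2 and 1 reads, each under 3.69 reads, the upper limit of the same interval for a count of 0. Such intervals cover counting error only. At this depth no difference between the groups could be read for this gene.

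The NCED sum was set against the hydroxylase VIT_02s0087g00710 within each library as a further description. In control berries of 2013 the ratio was 3.68 ± 0.53 (SD, n = 3) at (v + 28) and 5.61 ± 0.49 (SD, n = 3) at (v + 35). In soil N100 berries of that year it was 2.82 ± 0.50 and then 5.74 ± 2.3. The late libraries were above the early ones in control berries, from 5.21 to 6.15 against 3.11 to 4.14, whereas in soil N100 berries the lowest late library, at 3.34, equalled the highest early one to 3 digits. In 2014 the ratio spread from 3.08 to 8.57 in control berries at (v + 28) and from 2.19 to 8.69 at (v + 35), with no separation of the stages. Soil N100 berries of 2014 had 4.39 ± 0.92 and then 6.57 ± 1.9, from 3.46 to 5.29 against 4.49 to 8.08, so that the stages overlapped here too.

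Whether nitrogen supply changed these genes was asked at each stage and year. None of the 4 genes tested passed in any of the 4 contrasts of soil N100 against control, in limma or in limma-voom on the recovered reads, and none had an unadjusted p under 0.05. Over all genes, 0.0694% of 17298 were called at the early and 0.00578% at the late stage of 2013, and 0% and 0.00582% of 17171 in 2014. With a replicate block the 2013 counts went from 12 to 212 genes and from 1 to 22, with none of the 4 genes among them. At an unadjusted p under 0.05 and the same limit of size, 553, 472, 61 and 97 genes passed. NCED1 was lower in soil N100 berries at both stages of 2013, with an LFC of -0.31 (95% interval -0.72 to 0.10, adjusted p = 0.331) at (v + 28) and -0.33 (-0.74 to 0.08, adjusted p = 0.348) at (v + 35). The treatments overlapped at both stages, and at (v + 35) the highest soil N100 library, at 3.51 RPKM, was above the lowest control library, at 3.18 RPKM. The median LFC of all genes was -0.10 at both stages of 2013, and it moved to -0.01 and 0.00 after median-ratio rescaling. In 2014 the LFC of NCED1 was 0.02 (-0.40 to 0.45) and -0.06 (-0.49 to 0.37).

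Averaged over the stages of 2013, a contrast chosen after seeing the data, NCED1 had an LFC of -0.32 (SE 0.13, unadjusted p = 0.0324, adjusted p = 0.106), while 2.01% of genes, or 347, were called in either direction. With the stages averaged per replicate number, 11 genes were called. The adjusted p ranged from 0.0613 to 0.257 over the alternatives tried. The mean over stages takes the libraries of the same blocks at the 2 stages as independent. NCED2 under nitrogen had an LFC of -0.30 and -0.21 at the stages of 2013 and 0.02 and 0.34 at those of 2014. For the last of these the 95% interval was -0.19 to 0.86. NCED3 had an LFC of -0.14 and -0.13 in 2013 and -0.10 and 0.15 in 2014. At (v + 28) in 2014 all 3 soil N100 libraries of NCED3 were below all 3 control libraries, as was the case for 7.08% of genes, at an LFC of -0.10 (adjusted p = 1.00). The hydroxylase VIT_02s0087g00710 had an LFC of 0.04 and -0.18 in 2013 and of 0.14 and -0.14 in 2014. The nitrogen effect did not differ between the stages for any of them at the threshold (smallest unadjusted p = 0.428 in 2013 and 0.278 in 2014), nor between the years (smallest unadjusted p = 0.226 at (v + 28) and 0.141 at (v + 35)), and 0% of genes were called in these contrasts.

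**Figure D4:**
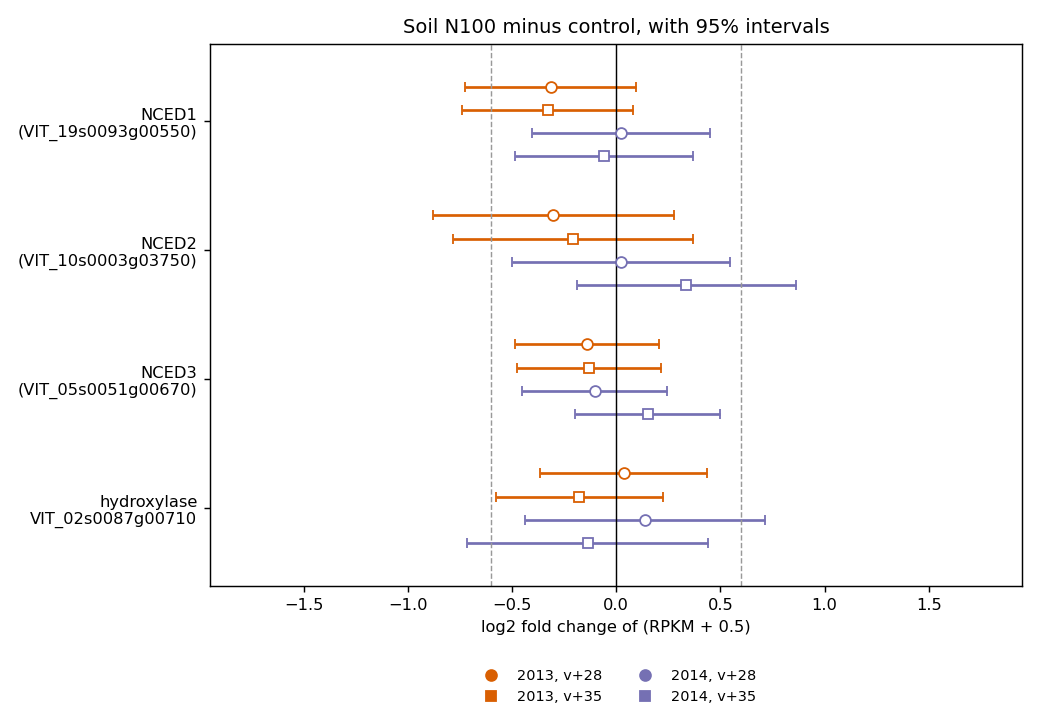
Soil N100 minus control for the 4 genes tested, as the LFC of RPKM + 0.5 with its 95% interval, by year and stage. Open marks did not pass the test, which holds for every mark shown, and dashed lines mark an LFC of 0.6 in size; NCED1 sat at -0.31 and -0.33 in 2013 and near 0 in 2014.

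The stage change differed between the years for NCED1 and NCED3. These contrasts, chosen after seeing the data, set the within-year LFC of 2014 against that of 2013 and so compare no levels across the tables. For NCED3 the difference was -1.43 (SE 0.22, adjusted p = 0.00143) in control berries and -1.18 (SE 0.22, adjusted p = 0.00439) in soil N100 berries. For NCED1 it was -1.32 (SE 0.27, adjusted p = 0.00575) in control berries and -1.39 (SE 0.27, adjusted p = 0.00498) in soil N100 berries. Among 16899 genes tested in both years, 2.78% and 1.73% were called lower in these contrasts. Over both treatments the difference was -1.30 (SE 0.16) for NCED3 and -1.35 (SE 0.19) for NCED1, with 4.55% of genes called lower. NCED2 and VIT_02s0087g00710 did not pass in any of these contrasts, with adjusted p values from 0.454 to 0.992.

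Other genes of the hormone and of dry tissues were counted beside these. The lists came from the study's tables, which were drawn up on the same samples, so their direction is not independent evidence. VIT_03s0063g00380 (CYP707A4), a further ABA 8'-hydroxylase, had 0.689 ± 0.33 RPKM (SD, n = 3) in control and 0.278 ± 0.12 RPKM in soil N100 berries at (v + 28) in 2013, where the lowest control library, at 0.366 RPKM, was below the highest soil N100 library, at 0.381 RPKM. At (v + 35) it had 0.749 ± 0.062 and 0.340 ± 0.11 RPKM, and every soil N100 library was below every control library, as was the case for 23.9% of genes. Its mean nitrogen effect in 2013 was an LFC of -0.58 (SE 0.14, adjusted p = 0.0210), under the limit of size, and in 2014 it stayed below the minimum level for testing. At levels so near the pseudocount of 0.5 the LFC understates the change in RPKM. VIT_17s0119g00110, described as an ABA-responsive GRAM domain gene, had an LFC of 0.54 (SE 0.13, adjusted p = 0.0221) in the same 2013 contrast and -0.02 (SE 0.16) in 2014. This mean over stages was chosen after seeing the data and takes the stages of the same blocks as independent. At the single stages of 2013 neither gene passed. Their adjusted p values were 0.0968 to 0.128 at (v + 28) and 0.175 to 0.239 at (v + 35).

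Late embryogenesis abundant (LEA) proteins protect cells during drying, and many LEA genes respond to ABA in seeds. All 10 listed LEA genes were tested, and 0 passed for nitrogen at a single stage of either year. In 2013 the LFC was negative for 10 of 10 at each stage, with a median of -0.35 at (v + 28) and -0.79 at (v + 35), against -0.10 over all genes tested at both. Averaged over the stages of 2013, a contrast chosen after seeing the data, 2 of the 10 passed in either direction, both as lower. Of all genes 2.01% were called in either direction. In 2014 the LFC was positive for 10 of 10 at (v + 28), with a median of 0.29, and for 6 of 10 at (v + 35), with a median of 0.02. The dehydrin VIT_03s0038g04390 had an LFC of -0.79 (SE 0.25, adjusted p = 0.163) and VIT_09s0002g06070 one of -0.77 (SE 0.29, adjusted p = 0.196) at (v + 35) in 2013. In that same contrast the seed markers, 5 genes described next, had a median LFC of -0.77, with 3 of 5 negative and 0 of 5 passing the test. The unadjusted p was at most 0.05 for 5 of 5 seed markers and for 10 of 10 LEA genes. Both lists came from the study's tables of genes that responded to nitrogen in these samples, so such counts were in part fixed in advance. Adjusted p values ran from 0.157 to 0.224 for the seed markers and from 0.113 to 0.196 for the LEA genes. Low unadjusted p values were common there, as NCED1, at 0.105 in limma, ranked 5229 by p among 17298 genes. Over all genes 0.00578% were called at the adjusted threshold, a share that does not serve as background for the unadjusted counts. The oleosins VIT_17s0000g09000 (OLEO4) and VIT_16s0013g00880 (OLEO1) had means of 86.95 and 85.02 RPKM in control berries there and of 47.0 and 49.6 RPKM in soil N100 berries. Both cruciferins, which store protein in seeds, had positive values, with an LFC of 1.54 for VIT_07s0005g03410 and 1.36 for VIT_07s0005g03420. The part of the seeds in the LEA values was not tested.

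Between the stages the LFC was positive for 10 of 10 LEA genes in control berries of 2013, with a median of 0.55. Of the 10, 2 passed as higher, where 3.93% of all genes were called higher, and 7 had an unadjusted p of at most 0.05. Under soil N100 in 2013, 0 of 10 passed and 1 of 10 had an unadjusted p of at most 0.05, with a median of 0.15 and 2 of 10 negative. In 2014, 0 of 10 passed in either treatment, with a median of -0.09 in control berries and -0.40 in soil N100 berries. The unadjusted p was at most 0.05 for 0 of 10 and 4 of 10, and the smallest adjusted p was 0.358 and 0.124. Over all genes 1.58% and 0.646% were called lower at the adjusted threshold in these contrasts. Low unadjusted p values were common between the stages, so the unadjusted counts are a description only. In control berries of 2013 NCED3, at 0.00126 in limma, ranked 1991 by p among 17298 genes. In soil N100 berries of 2014 it ranked 1167 among 17171 genes, at 0.00823.

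Seeds were part of the samples, and the 5 seed marker genes (oleosins, cruciferins and a cupin) were measured in every group, with none at 0. Their summed level was 106 to 208 RPKM in the early and 183 to 244 RPKM in the late control berries of 2013, and 202 to 323 and then 108 to 277 RPKM in those of 2014. In soil N100 berries it was 96.4 to 242 and then 143 to 211 RPKM in 2013, and 237 to 311 and then 152 to 212 RPKM in 2014. Averaged over treatments, the median LFC of the list between the stages was 0.18 in 2013 and -0.40 in 2014. Over all genes tested it was -0.08 and -0.02. In 2013 the LFC was positive for 5 of 5 genes and 1 of 5 passed as higher, where 4.14% of all genes were called higher. In 2014 it was negative for 5 of 5 and 0 of 5 passed, where 2.28% of all genes were called lower. For the abundant oleosins VIT_17s0000g09000 (OLEO4) and VIT_16s0013g00880 (OLEO1) the LFC was 0.04 and 0.02 in 2013 and -0.47 and -0.51 in 2014. Within treatments the median LFC of the list in 2013 was 0.38 in control berries and -0.12 in soil N100 berries. In the latter 3 of 5 were negative, whereas NCED3 rose in both treatments. In 2014 the median was -0.30 in control and -0.50 in soil N100 berries, and NCED3 was lower at the later stage in both. The part of the seeds in the NCED values was not tested, and in whole berries a change in the proportion of a tissue and a change in RNA per cell cannot be told apart.

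Likeness of pattern was measured as Pearson's r of log2(RPKM + 0.5) over the 24 libraries after subtracting the mean of each year, among 16899 genes tested in both years. The libraries share groups and scaling, so r is a description only. NCED1 and NCED3 had r = 0.70 with each other. NCED1 and NCED2 had r = 0.10, and NCED2 and NCED3 had r = 0.22. The hydroxylase VIT_02s0087g00710 had r = -0.14 with NCED1, 0.10 with NCED2 and 0.22 with NCED3. After subtracting the group means, so that only the variation between replicates remained, NCED1 and NCED2 had r = 0.72 and NCED1 and NCED3 had r = 0.62. By this likeness to NCED1, NCED2 ranked 200 and NCED3 ranked 1044 among 16898 genes. NCED2 and NCED3 had r = 0.29, and the hydroxylase had 0.06, -0.12 and 0.18 with NCED1, NCED2 and NCED3. The gene most like NCED1 was VIT_16s0050g00950 (r = 0.93), that most like NCED3 was VIT_11s0037g00040 (r = 0.89), that most like NCED2 was VIT_05s0029g00140 (r = 0.84) and that most like VIT_02s0087g00710 was VIT_06s0004g04010 (r = 0.85). The files do not pair these identifiers with names. With group means subtracted, r for these pairs was 0.63, 0.65, 0.81 and 0.87.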

How the data were processed

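The authors called bases with CASAVA 1.8.2, aligned the reads with TopHat2 2.0.10 and Bowtie2 2.1.0 to the grapevine 12X assembly, counted them per V1 gene with HTSeq 0.5.4p3 and deposited RPKM values, 1 table per year. Whether counting used strand is not given in the sources used here. The whole reads behind the RPKM values could be recovered for 100.0% of genes (tolerance 0.01 reads), and in simulated tables for 98.6% (2013) and 98.7% (2014) of genes. Reads in genes ranged from 29.6 M to 80.0 M per library, which limits the precision of genes near 1 RPKM.

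In R 4.3.3 with limma 3.58.1, log2(RPKM + 0.5) of the genes with a yearly mean of at least 0.5 RPKM was fitted per year with 1 mean for each of 4 groups, with trended empirical Bayes moderation, with Benjamini-Hochberg adjustment across the genes tested. Year contrasts used Welch-Satterthwaite degrees of freedom. On simulated reads 84 to 90% of genes with a true LFC of 1 in size were called in the nitrogen contrasts. The changed genes were drawn at any abundance tested and outnumbered the calls of the real nitrogen contrasts, which eases the adjustment. The share therefore does not tell how often such a change would be called for the genes described here. Alternatives were pseudocounts, filters, median-ratio and quantile scaling, untrended moderation, replicate block, limma-voom on recovered reads, fewer libraries and each library left out. Tables were read with Python 3.11.15 and drawn with matplotlib 3.10.9. The members and lists were chosen with earlier results of these data known. Named genes were the 5 members, the listed ABA genes, the most abundant genes of the other lists and, of the most similar genes, the first for each member. No sequences or coordinates are given, because no sequence of the build used was at hand.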

Additional observations from a re-analysis of the deposited data

Results flagged for a closer look

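The change from (v + 28) to (v + 35) differed between 2013 and 2014 for 2 of the 4 genes tested, by a test of the difference of the within-year LFC values (2014 minus 2013). For NCED3 (VIT_05s0051g00670) the difference was -1.43 in control berries, -1.18 in soil N100 berries and -1.30 over both treatments. For NCED1 (VIT_19s0093g00550) it was -1.32, -1.39 and -1.35. Each kept its direction and its call in the alternatives in which it was tested, with the largest adjusted p at 0.0200 over the single-treatment contrasts. The years also differed in clone and rootstock, which cannot be told apart from the season.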

How the results depend on the processing

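The number of the 4 genes called as higher or lower between the stages depended on NCED3. With a pseudocount of 1, 1 gene in place of 2 was called in control berries, soil N100 berries and their mean in 2013, and 0 in place of 1 in control berries and the mean in 2014. With a minimum mean of 2 RPKM, which leaves NCED3 and VIT_02s0087g00710 untested, and NCED1 in 2014, the same counts were 1, 1, 1, 0 and 0, and the year contrasts had 0 in place of 2. Control berries of 2014 had 0 in place of 1 with their 6 libraries alone, and the mean of 2014 had 0 with quantile normalization. With single libraries left out the count was 1 to 2 in each treatment of 2013 and 0 to 1 in control berries and in the mean of 2014. The stage calls of NCED1 in 2013 were kept in every alternative run, and 0 of these 4 genes passed for nitrogen in any.

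Values near 0 changed sign. The LFC of NCED1 between the stages in soil N100 berries of 2014 was 0.033 with quantile normalization. With single libraries left out, the LFC under nitrogen ran from -0.11 to 0.17 (VIT_02s0087g00710, 2013, early) and from -0.37 to 0.059 (NCED2, 2013, late). In 2014 it ran from -0.12 to 0.11 (NCED1), -0.14 to 0.29 (NCED2) and -0.0031 to 0.37 (VIT_02s0087g00710) at the early stage, and from -0.20 to 0.16 (NCED1) and -0.30 to 0.14 (VIT_02s0087g00710) at the late stage. Between the stages it ran from -0.21 to 0.074 (VIT_02s0087g00710, control, 2013), -0.35 to 0.071 (NCED2, soil N100, 2013), -0.19 to 0.18 (NCED1, control, 2014), -0.11 to 0.045 (NCED1, soil N100, 2014) and -0.25 to 0.023 (NCED2, soil N100, 2014).

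Libraries of the same replicate number did not deviate together throughout, and the number was not taken as a pairing in the main fit. Between pairs of groups r ran from -0.44 to 0.36 in 2013, where most values were positive. In 2014 it ran from -0.43 to 0.71, where most were negative. For 2013 these values do not settle whether the number marks a pairing. With a replicate block, 0 in place of 1 member was called between the stages in control berries of 2014 (NCED3, adjusted p = 0.0592), and no other call of a member changed. Over all genes the block moved the calls under nitrogen at (v + 28) in 2013 from 12 to 212 and at (v + 35) from 1 to 22, and those between the stages of 2014 from 358 to 212 in control and from 126 to 55 in soil N100 berries. Averaging the stages per replicate number, added after seeing the data, left 11 in place of 347 genes called for the mean nitrogen effect of 2013. With the 6 libraries alone the calls in control berries of 2014 went from 358 to 4. The cause was not tested. Depth limits VIT_18s0001g10500, with at most 6 reads per library.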
